A study of Cucumis sativus with 4 samples.

Results

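Expression of Calvin cycle and photorespiration genes was followed in leaves and roots of cucumber (Cucumis sativus) supplied with little or ample nitrate. Genes were taken from the deposited expression table by their Arabidopsis homologue: the rule named 38 Arabidopsis IDs for Rubisco small subunits and activase, Calvin cycle enzymes, CP12 proteins, photorespiration enzymes and plastid dicarboxylate carriers. Of these IDs, 28 matched 33 of the 18665 genes in the table, and the other 10 IDs were not analysed here. The names used below are the Arabidopsis names of the homologues that the table assigns. Several genes matched the same ID in 4 cases, covering 9 genes, and these copies are told apart by their scaffold. The sources used here do not say how reads shared by similar copies were counted, so values of single copies are less certain than their sums.

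The libraries came from leaves on low nitrogen, leaves on the control solution, roots on low nitrogen and roots on the control solution, with 1 library in each group. Plants were 28 days old and grew in sand with 14 h of light per day. The low nitrogen solution held 1 mM nitrate and the control solution 5 mM. Salts that replaced nitrate raised sulfate to 1.45 mM in the low nitrogen solution, against 0.25 mM in the control, and chloride to 1.8 mM, against 0.2 mM; the effects of nitrate and of these ions cannot be told apart. Potassium, calcium, magnesium and phosphate were equal in both. The sources used here name no cultivar, leaf position or number of plants per sample.

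Values are RPKM, in which reads are divided by gene length and library size, so that levels can be compared between genes. The depth recovered from the steps between values was 2.74 M reads (M for mega) in low nitrogen leaf, 2.93 M in control leaf, 3.98 M in low nitrogen root and 4.23 M in control root. With 1 library per group there is no replicate error and no test, so every difference below is between 2 libraries. Ratios are log2 of RPKM plus 1 over RPKM plus 1, which understates the change of low genes, and a gene is called higher from a ratio of 1 upwards and lower from -1 downwards. Counting intervals are exact 95% intervals on recovered read counts and cover counting error only. The recovered counts are the smallest whole counts that the values allow, so true counts can be higher. Intervals could be had for 25 of the 33 genes.

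The organ labels were checked against marker genes. Antenna and photosystem markers summed to 26885 RPKM in low nitrogen leaf and 52666 in control leaf, against 156 in low nitrogen root and 188 in control root. The Casparian strip genes CASP2, CASP4 and CASP5 and the root hair regulator RHD6 were listed at 0 in both leaf libraries and were above 11 RPKM in both root libraries. They were picked from 15 root cell type genes, of which 9 were listed at 0 in low nitrogen leaf and 11 in control leaf. Others were read in leaf. FD3 on scaffold01365 was at 26.7 RPKM in low nitrogen leaf and 30.5 in control leaf, and SHR on scaffold00927 at 7.01 and 4.49 RPKM. SCR on scaffold00034 was at 0.45 RPKM in low nitrogen leaf and 0.31 in low nitrogen root.

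The Calvin cycle fixes CO2 in the chloroplast stroma: Rubisco attaches CO2 to ribulose bisphosphate, the product is reduced to triose phosphate with ATP and NADPH, and the acceptor is regenerated from triose phosphate. When Rubisco takes oxygen in place of CO2 it makes phosphoglycolate, and photorespiration returns most of that carbon through the chloroplast, the peroxisome and the mitochondrion. Photorespiration releases ammonium at the glycine decarboxylase step, which ties it to nitrogen assimilation. Rubisco holds a large part of the nitrogen of a leaf.

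The 33 genes made up 4.04% of the summed RPKM in low nitrogen leaf and 6.84% in control leaf, against 0.111% in low nitrogen root and 0.126% in control root. Most of the leaf share was the small subunit gene RBCS3B (AT5G38410), which alone held 2.62% of the sum in low nitrogen leaf and 4.77% in control leaf. It was the 3rd highest of all genes in low nitrogen leaf and the highest in control leaf. Without it, the other 32 genes summed to 10511 RPKM in low nitrogen leaf and 15941 in control leaf. Among the 100 highest genes of each library, 4 of the 33 were found in low nitrogen leaf and 7 in control leaf. Median levels of the 33 genes were 154 RPKM in low nitrogen leaf and 214 in control leaf, against 4.22 in low nitrogen root and 5.4 in control root.

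**Figure D1:**
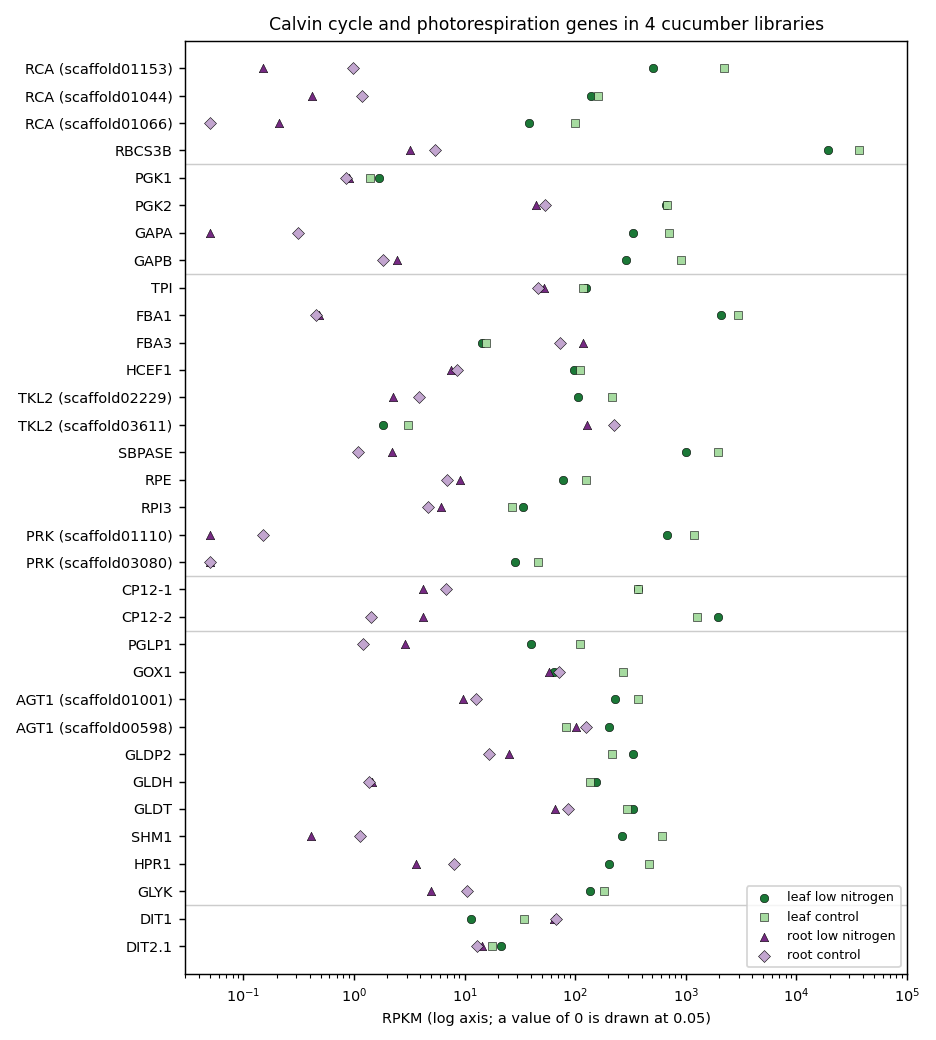
RPKM of the 33 genes (rows, in the order Rubisco, reduction, regeneration, CP12, photorespiration and carriers) in the 4 libraries, on a log axis, with 1 point per library and values of 0 drawn at the left. Leaf values lie to the right of root values for most genes, while FBA3, DIT1 and the TKL2 copy on scaffold03611 lie further right in root.

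Leaves on low nitrogen had lower levels for much of the group. Of the 33 genes, 9 were lower and 1 was higher than in control leaf, and the median log2 ratio was -0.52. Among all 13384 genes compared in leaf, 3.59% were lower and 13.6% were higher, with a median of 0.33. The 9 lower genes were 2 copies of Rubisco activase, both plastid glyceraldehyde-3-phosphate dehydrogenase subunits, 4 photorespiration enzymes and the carrier DIT1. The higher gene was a copy of the aminotransferase AGT1. Just short of the threshold, between -1 and -0.9, lay RBCS3B, SBPASE and the TKL2 copy on scaffold02229.

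Because the median of all genes in leaf was not 0, ratios were also taken relative to it. On that scale 15 of the 33 genes were lower and 0 higher, where 7.51% of all genes were lower and 5.91% higher, and 30 of the 33 lay below the median of all genes. The 3 above it were CP12-2, GLDP2 and the AGT1 copy on scaffold00598, and these had a positive log2 ratio as deposited and under each of 5 further scalings. Signs were negative under each scaling for 22 genes and depended on the scaling for 8: PGK1, PGK2, TPI, RPI3, CP12-1, GLDH, GLDT and DIT2.1. High expression alone was looked at too. The 990 genes with a leaf mean of at least 100 RPKM had a median of 0.18, with 6.87% lower and 10.3% higher, and the 24 Calvin cycle and photorespiration genes among them had a median of -0.60, with 6 lower and 1 higher. In tissue samples, fewer cells of a type and less RNA per cell cannot be told apart.

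**Figure D2:**
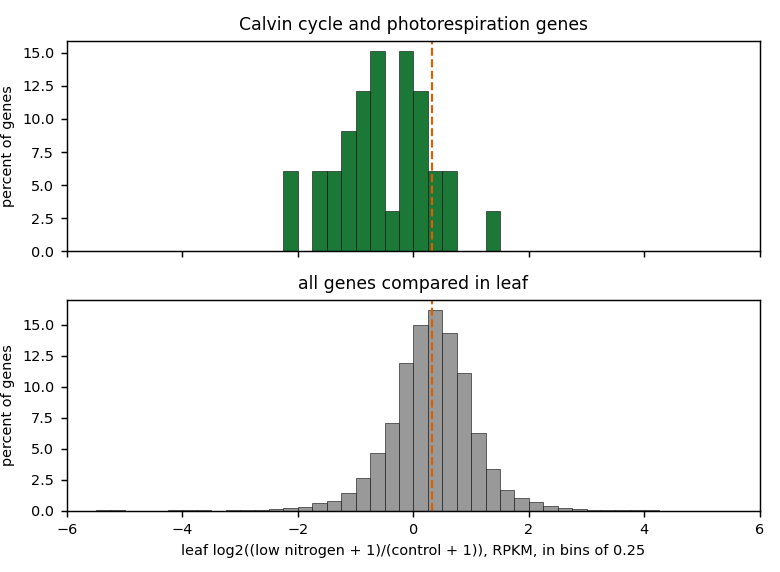
Distribution of leaf log2 ratios, low nitrogen against control, as percent of genes per bin, for the 33 genes (upper) and for all 13384 genes compared (lower), with a dashed line at the median of all genes, 0.33. Most of the 33 genes lie left of that line, between -2.13 and 1.29.

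Of the 4 Rubisco and activase genes, 2 activase copies passed the threshold in low nitrogen leaf, and the small subunit and the remaining copy did not. RBCS3B, the small subunit, was at 19432 RPKM in low nitrogen leaf and 36768.6 in control leaf, and at 3.24 RPKM in low nitrogen root and 5.4 in control root. That is 1.89-fold lower in low nitrogen leaf, a log2 ratio of -0.92. Rubisco activase, which uses ATP to free Rubisco sites from bound sugar phosphates, had 3 genes. The most abundant activase gene, RCA on scaffold01153 (AT2G39730), was at 509 RPKM in low nitrogen leaf and 2231 in control leaf, 4.38-fold lower (counting interval 4.19 to 4.58.) The RCA copy on scaffold01066 was at 37.9 and 99.05 RPKM in low nitrogen and control leaf, 2.61-fold lower (counting interval 2.25 to 3.04). The RCA copy on scaffold01044 was at 138 RPKM in low nitrogen leaf and 161 in control leaf, a log2 ratio of -0.21. In root, the 3 activase copies lay between 0 and 1.18 RPKM.

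In the reduction phase, phosphoglycerate kinase stayed close to its control level while glyceraldehyde-3-phosphate dehydrogenase was lower. PGK2 (AT1G56190), which phosphorylates 3-phosphoglycerate, was at 657 RPKM in low nitrogen leaf and 677 in control leaf, and at 44.3 and 53.4 RPKM in low nitrogen and control root. GAPA (AT3G26650) and GAPB (AT1G42970) are the subunits of the NADPH-using dehydrogenase of the plastid. GAPA was at 331 RPKM in low nitrogen leaf and 701 in control leaf, 2.12-fold lower (counting interval 1.99 to 2.26.) GAPB was at 290 RPKM in low nitrogen leaf and 897 in control leaf, 3.10-fold lower. GAPA was the less abundant subunit in control leaf and the more abundant in low nitrogen leaf. Root levels were 0 and 0.31 RPKM for GAPA and 2.45 and 1.82 RPKM for GAPB in low nitrogen and control root. The remaining gene, PGK1 (AT3G12780), lay between 0.85 and 1.68 RPKM in the 4 libraries.

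Of the 11 genes that regenerate the Rubisco substrate, 0 reached the threshold in leaf on the deposited scale, and their median log2 ratio was -0.52. Relative to the median of all genes 4 of the 11 were lower and 0 higher, where 7.51% of all genes were lower and 5.91% higher, so this count depends on the scaling. The abundant enzymes were lower by less than 2-fold. FBA1 (AT2G21330), an aldolase that joins triose phosphates, was at 2081 RPKM in low nitrogen leaf and 2968 in control leaf, and below 0.5 RPKM in both roots. SBPASE (AT3G55800), which removes a phosphate from sedoheptulose bisphosphate, was at 1004 RPKM in low nitrogen leaf and 1957 in control leaf, 1.95-fold lower (counting interval 1.88 to 2.02). It was at 2.19 RPKM in low nitrogen root and 1.1 in control root. Phosphoribulokinase closes the cycle by making ribulose bisphosphate. Its main gene, PRK on scaffold01110 (AT1G32060), was at 681 RPKM in low nitrogen leaf and 1177 in control leaf, 1.73-fold lower (counting interval 1.67 to 1.79.) In root this PRK gene was at 0 RPKM on low nitrogen and 0.15 on control. The other PRK gene, on scaffold03080, was at 28.9 and 45.7 RPKM in low nitrogen and control leaf and listed at 0 in both roots.

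Other regeneration enzymes ranged from lower to level. The transketolase copy TKL2 on scaffold02229 (AT2G45290) moves carbon units between sugar phosphates. It was at 107 RPKM in low nitrogen leaf and 214 in control leaf, 2.01-fold lower (counting interval 1.84 to 2.18). With the pseudocount of 1 its log2 ratio was -0.998, just short of the threshold. The epimerase RPE (AT5G61410) was at 76.9 RPKM in low nitrogen leaf and 124 in control leaf, 1.62-fold lower (counting interval 1.40 to 1.86). Fructose bisphosphatase HCEF1 (AT3G54050) was at 98.6 RPKM in low nitrogen leaf and 111 in control leaf, and its counting interval for the fold, 0.986 to 1.28 lower, included 1. The triose phosphate isomerase TPI (AT2G21170) was at 126 RPKM in low nitrogen leaf and 118 in control leaf, with an interval of 0.993 to 1.15 that also included 1. RPI3 (AT3G04790), the isomerase that makes ribulose 5-phosphate from ribose 5-phosphate, was at 33.6 RPKM in low nitrogen leaf and 27.1 in control leaf. Root levels of TPI were 52.7 RPKM on low nitrogen and 45.95 on control, the nearest to leaf levels among the genes of this phase that were higher in leaf.

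CP12, a small protein that holds glyceraldehyde-3-phosphate dehydrogenase and phosphoribulokinase in an inactive complex in darkness, did not share the lower levels of its partners on the deposited scale. CP12-2 (AT3G62410) was at 1936 RPKM in low nitrogen leaf and 1262 in control leaf, 1.53-fold higher. CP12-1 (AT2G47400) was at 369 RPKM in low nitrogen leaf and 372 in control leaf, with an interval of 0.890 to 1.103 for the fold. CP12-2 was the 1 gene of the 33 above the threshold in root, at 4.22 RPKM on low nitrogen and 1.44 on control, while CP12-1 in root was at 4.23 and 6.87 RPKM. The CP12-2 ratio in root was 1.097 on the log2 scale with a pseudocount of 1 and 0.52 with a pseudocount of 5, so the call rests on low values.

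Photorespiration split by step in low nitrogen leaf: 4 of 10 genes were lower and 1 higher, where 3.59% of all genes were lower and 13.6% higher. Relative to the median of all genes 5 were lower and 0 higher. The plastid entry enzyme PGLP1 (AT5G36700), phosphoglycolate phosphatase, was at 39.6 RPKM in low nitrogen leaf and 110.4 in control leaf, 2.79-fold lower (counting interval 2.31 to 3.38). Glycolate oxidase GOX1 (AT3G14420), which makes glyoxylate in the peroxisome, was at 63.9 RPKM in low nitrogen leaf and 272 in control leaf, 4.26-fold lower (counting interval 3.81 to 4.77.) With the main activase gene, it had the lowest ratios of the 33. GOX1 was at 57.8 RPKM in low nitrogen root and 71.5 in control root, so its level in low nitrogen leaf was 1.11-fold that in low nitrogen root (counting interval 0.966 to 1.27). In control leaf it was 3.81-fold that in control root.

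In the mitochondrion, glycine decarboxylase and serine hydroxymethyltransferase work together to turn glycine into serine, CO2 and ammonium. The 3 decarboxylase genes were not lower on the deposited scale. GLDP2 (AT2G26080), the P protein, was at 330.1 RPKM in low nitrogen leaf and 214 in control leaf, 1.54-fold higher (counting interval 1.47 to 1.62), and at 25.1 and 16.7 RPKM in low nitrogen and control root. The H protein gene GLDH (AT2G35370) was at 154 and 137 RPKM in low nitrogen and control leaf, and the T protein gene GLDT (AT1G11860) at 331 and 291 RPKM. Relative to the median of all genes both lay slightly below 0, at -0.16 and -0.14. SHM1 (AT4G37930), the hydroxymethyltransferase, was at 263 RPKM in low nitrogen leaf and 604 in control leaf, 2.29-fold lower. In root, GLDT was at 65.7 and 85.5 RPKM on low nitrogen and control, while GLDH and SHM1 stayed below 1.5 RPKM.

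Back in the peroxisome, serine is converted to hydroxypyruvate by AGT1 and then to glycerate by HPR1. The 2 AGT1 genes (AT2G13360) had opposite ratios in leaf. AGT1 on scaffold01001 was at 229 RPKM in low nitrogen leaf and 369 in control leaf, 1.61-fold lower (counting interval 1.49 to 1.75). AGT1 on scaffold00598 was at 204 RPKM in low nitrogen leaf and 82.7 in control leaf, 2.46-fold higher (counting interval 2.18 to 2.79.) Its log2 ratio of 1.29 became 0.96 relative to the median of all genes, below the threshold. Summed over both copies, the step was at 432 RPKM in low nitrogen leaf and 452 in control leaf. HPR1 (AT1G68010), hydroxypyruvate reductase, was at 203 RPKM in low nitrogen leaf and 467 in control leaf, 2.30-fold lower. GLYK (AT1G80380), the kinase that returns glycerate to the Calvin cycle, was at 137 RPKM in low nitrogen leaf and 182 in control leaf.

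The plastid dicarboxylate carriers move carbon skeletons between stroma and cytosol for ammonium assimilation and differed from each other. DIT1 (AT5G12860), the 2-oxoglutarate/malate carrier, was at 11.4 RPKM in low nitrogen leaf and 34.2 in control leaf, 2.99-fold lower (counting interval 2.27 to 3.99.) Its root levels were higher than its leaf levels, at 64.1 RPKM on low nitrogen and 66.7 on control. DIT2.1 (AT5G64290), the glutamate/malate carrier, was at 21.3 RPKM in low nitrogen leaf and 17.6 in control leaf, and at 14.3 and 12.9 RPKM in low nitrogen and control root.

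**Figure D3:**
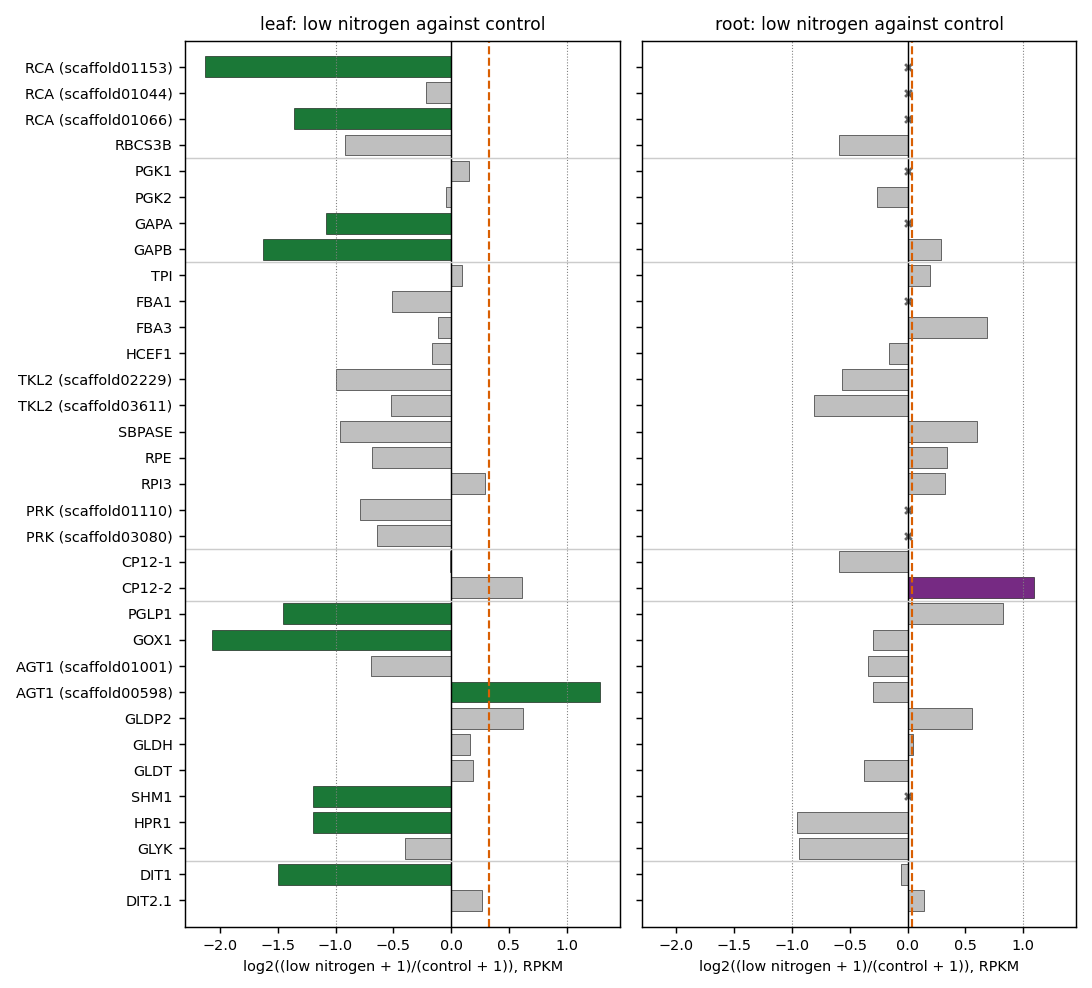
Log2 ratio of low nitrogen against control for each of the 33 genes in leaf (left) and root (right), ordered by role. Coloured bars reach an absolute log2 ratio of 1, crosses mark genes with a mean below 1 RPKM that were not compared, and dashed lines give the median of all genes, 0.33 in leaf and 0.04 in root; 10 bars are coloured in leaf and 1 in root.

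Copies and subunits were next set against each other inside a library, since such ratios do not depend on how the libraries were scaled. CP12 per plastid glyceraldehyde-3-phosphate dehydrogenase was 3.71 in low nitrogen leaf and 1.02 in control leaf, and CP12 per phosphoribulokinase was 3.25 and 1.34. Glycine decarboxylase subunits per glycolate oxidase came to 12.8 in low nitrogen leaf and 2.36 in control leaf, the widest gap of the ratios taken. The same subunits per SHM1 were at 3.10 and 1.06 in low nitrogen and control leaf. These ratios set genes that were higher in low nitrogen leaf over genes that were lower. They restate the leaf ratios given above and add no separate evidence. PGK2 per GAPB was 2.27 in low nitrogen leaf and 0.755 in control leaf.

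The main activase gene per copy on scaffold01044 was 3.68 in low nitrogen leaf and 13.9 in control leaf, so the make-up of activase transcripts differed. All activase genes together gave 3.53 RPKM per 100 RPKM of small subunit in low nitrogen leaf and 6.77 in control leaf. The small subunit itself kept nearly the same proportion to the summed antenna and photosystem markers, 0.723 in low nitrogen leaf and 0.698 in control leaf. Reduction and regeneration genes per marker sum were at 0.206 and 0.172 in low nitrogen and control leaf, and photorespiration genes per marker sum at 0.0727 and 0.0518.

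**Figure D4:**
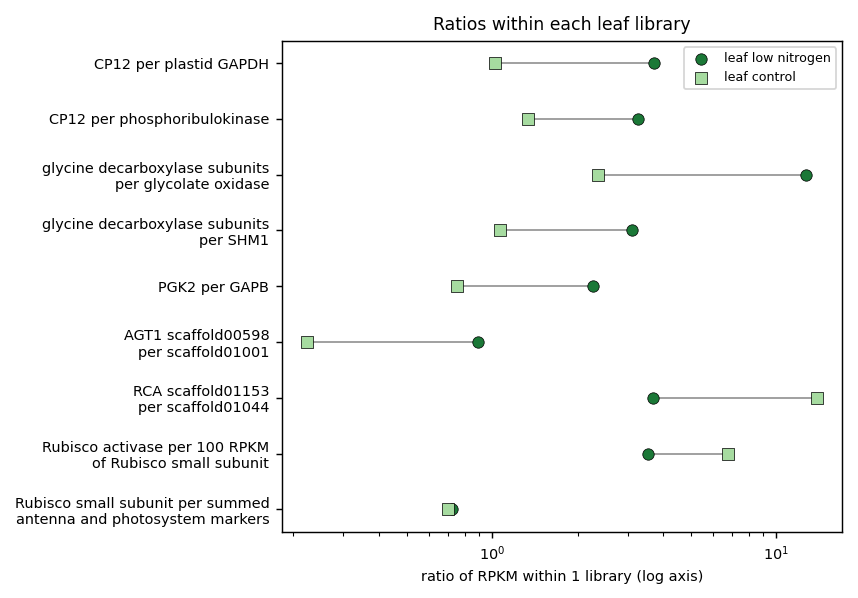
Ratios of RPKM between genes or summed genes within the low nitrogen leaf library and the control leaf library, on a log axis, with 1 point per library and a line joining the pair. CP12 and glycine decarboxylase ratios are higher in low nitrogen leaf, both activase ratios are lower, and the small subunit per marker sum is 0.723 and 0.698.

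Leaf and root differed far more than the nitrogen levels did. Between low nitrogen leaf and low nitrogen root, 26 of the 33 genes were higher in leaf and 3 lower, with a median log2 ratio of 4.52, where 20% of all 15057 genes compared were higher and 31.2% lower. Between control leaf and control root, 27 were higher and 2 lower, with a median of 5.47, where 17.6% of all 14711 genes compared were higher and 40.4% lower. The median of all genes was -0.30 on low nitrogen and -0.65 on control. PRK on scaffold01110 was listed at 0 in low nitrogen root and was at least 2770-fold higher in low nitrogen leaf, against a floor of 3 reads in the root library. GAPA was likewise listed at 0 in low nitrogen root and at least 669-fold higher in leaf. FBA1 rested on 3 reads in each root library, and its leaf to root ratios were 4335 on low nitrogen, with a counting interval of 1496 to 21212, and 6595 on control, with an interval of 2269 to 32168.

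Genes lower in leaf than in root were TKL2 on scaffold03611 and FBA3 under both nitrogen supplies, and DIT1 on low nitrogen. The aldolase FBA3 (AT2G01140) was at 14.5 RPKM in low nitrogen leaf and 117 in low nitrogen root, and at 15.8 RPKM in control leaf and 72.5 in control root. The TKL2 copy on scaffold03611 was at 1.84 RPKM in low nitrogen leaf and 127 in low nitrogen root, and at 3.07 RPKM in control leaf and 223 in control root. Its sister copy on scaffold02229 was at 2.27 RPKM in low nitrogen root and 3.85 in control root, so the organs differed in which transketolase gene was expressed while summed levels were 109 and 217 RPKM in low nitrogen and control leaf and 129 and 227 RPKM in low nitrogen and control root. The AGT1 copy on scaffold00598 was at 102 RPKM in low nitrogen root and 125 in control root. Its level in low nitrogen leaf was 2.00-fold that in low nitrogen root, while in control leaf it was 0.662 of that in control root. The AGT1 copy on scaffold01001 was at 9.73 and 12.6 RPKM in low nitrogen and control root.

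**Figure D5:**
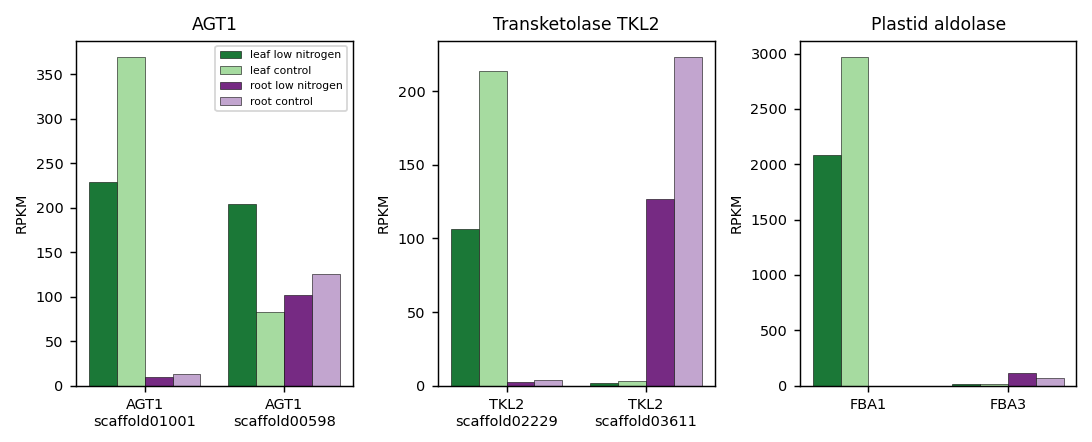
RPKM of AGT1 copies, TKL2 copies and the plastid aldolases FBA1 and FBA3 in low nitrogen leaf, control leaf, low nitrogen root and control root, with bars from 0 and 1 library per bar. TKL2 on scaffold02229 is high in leaf and TKL2 on scaffold03611 in root, and the AGT1 copy on scaffold00598 reaches 204 RPKM in low nitrogen leaf.

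Root libraries differed less than leaf libraries between nitrogen supplies. Of the 33 genes, 24 had a mean of at least 1 RPKM in root, of which 1 was higher and 0 were lower on low nitrogen, and the median log2 ratio was -0.11. Among all 14532 genes compared in root, 6.17% were higher and 4.34% lower, with a median of 0.04. Close below the threshold were HPR1, at 3.67 RPKM in low nitrogen root and 8.04 in control root, and GLYK, at 5.03 and 10.6 RPKM, 2.097-fold lower (counting interval 1.48 to 3.01.) Of the genes abundant in root, TKL2 on scaffold03611 was 1.76-fold lower on low nitrogen (counting interval 1.65 to 1.88), and FBA3 was 1.62-fold higher (counting interval 1.45 to 1.81). AGT1 on scaffold00598 was 1.23-fold lower in low nitrogen root (counting interval 1.11 to 1.37).

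Subtracting the root log2 ratio from the leaf log2 ratio gave 1 gene at 1 or above and 8 genes at -1 or below. Among all 14975 genes compared in this way, 16.5% were above and 7.03% below these limits, and the medians were -0.35 for the 33 genes and 0.27 for all genes. PGLP1 had the lowest difference, at -2.29, resting on 16 reads in low nitrogen root and 7 in control root. The AGT1 copy on scaffold00598 had the highest, at 1.59.

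Other genes of the same pathways came from lists of Arabidopsis homologues and were counted in the same way in leaf, where 13.6% of all genes were higher and 3.59% lower, and 5.91% and 7.51% relative to the median of all genes. The list genes named came from those with the largest absolute leaf ratios unless stated otherwise. Among 20 further genes listed under photorespiration, 1 was higher and 1 lower, and the median was 0.20. The list also held the related oxidases HAOX1 and HAOX2 and several copies of BOU and HPR2. Relative to the median of all genes 1 was higher and 3 lower. The higher one, a copy of BOU (AT5G46800) on scaffold02995, was at 9.36 RPKM in low nitrogen leaf and 2.57 in control leaf. The lower one, the catalase CAT2 (AT4G35090) on scaffold00791, which removes the hydrogen peroxide made by glycolate oxidase, was at 928 RPKM in low nitrogen leaf and 1895 in control leaf. Plastid glutamine synthetase GS2 (AT5G35630), which takes up photorespiratory ammonium, was at 753 and 655 RPKM in low nitrogen and control leaf; it falls outside the naming rule and was chosen after its values were seen. Among 7 further Calvin cycle and CO2 supply genes, 0 were higher and 1 was lower, around a median of -0.09, and relative to the median of all genes 2 were lower. The gene lower on both scales, the carbonic anhydrase BCA1 (AT3G01500), was at 1027 RPKM in low nitrogen leaf and 2345 in control leaf.

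Of 11 Rubisco assembly genes, 5 were higher in low nitrogen leaf and 0 lower, with a median of 0.86, where 13.6% of all genes were higher. Relative to the median of all genes 2 of the 11 were higher, where 5.91% of all genes were. The chaperonin subunit CPN60B2 (AT3G13470), part of the plastid folding cage for the Rubisco large subunit, was at 778 RPKM in low nitrogen leaf and 197 in control leaf, 3.96-fold higher (counting interval 3.66 to 4.29.) The RBCX2 chaperone genes (AT5G19855) were at 21.3 and 7.42 RPKM in low nitrogen and control leaf on scaffold01079, and at 12.9 and 5.58 RPKM on scaffold00696. Other abundant assembly genes, chosen after their values were seen, lay near their control levels. CPN60A1 was at 640.4 RPKM in low nitrogen leaf and 738 in control leaf, CPN20 at 983 and 877 RPKM, and BSD2 on scaffold02995 at 278 and 242 RPKM. The Rubisco large subunit is encoded in the chloroplast genome and was not analysed here.

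The plastid thioredoxin system, part of which switches Calvin cycle enzymes on in light, had 1 gene of 9 higher and 0 lower, with a median of -0.05. The higher gene, TRXz (AT3G06730), was at 91.3 RPKM in low nitrogen leaf and 27.1 in control leaf. Counterparts of the cycle enzymes, mostly glycolytic, had 1 gene of 13 higher and 0 lower, with a median of -0.32. Relative to the median of all genes 0 were higher and 2 lower. The oxidative pentose phosphate pathway, which shares sugar phosphates with the regeneration phase, had 1 gene of 8 lower in leaf and 0 higher. In root 1 of its 8 genes compared was higher and 2 were lower, where 6.17% of all genes were higher and 4.34% lower. Starch and sucrose synthesis had 1 gene of 11 higher and 1 lower in leaf, with a median of -0.15, and 0 higher and 2 lower relative to the median of all genes. The starch synthase GBSS1 (AT1G32900), lower on the deposited scale, was at 297 RPKM in low nitrogen leaf and 711 in control leaf. APL3 (AT4G39210), the gene higher on the deposited scale, was at 21.8 RPKM in low nitrogen leaf and 8.66 in control leaf.

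Markers of other cell types also differed between the leaf libraries, against the same shares of all genes, 13.6% higher and 3.59% lower. Relative to the median of all genes these shares were 5.91% and 7.51%. Antenna and photosystem markers had 0 higher and 5 lower of 13, and their sum was 1.96-fold lower on low nitrogen. Markers of dividing cells had 7 higher of 8 and summed to 107 RPKM in low nitrogen leaf, against 14.8 in control leaf. Epidermis and guard cell markers had 6 higher and 0 lower of 10 and summed to 327 RPKM in low nitrogen leaf and 129 in control leaf, but relative to the median of all genes 3 were higher and 1 lower. Phloem and xylem markers had 4 higher and 2 lower of 16, with a median of 0.02. Relative to the median of all genes 2 were higher and 4 lower. Phloem and xylem sums were 363 and 770 RPKM in low nitrogen and control leaf. Most of that gap in sums lay in 2 copies of PP2-A1, at 28.03 RPKM in low nitrogen leaf and 266 in control leaf on scaffold01154, and at 36.7 and 189 RPKM on scaffold03443. Senescence markers had 2 higher and 0 lower of 7, with sums of 122 and 89.2 RPKM. Relative to the median of all genes 1 was higher and 1 lower. Root cell type markers summed to 37.2 RPKM in low nitrogen leaf and 42.3 in control leaf. Most of each sum was FD3 on scaffold01365, at 26.7 RPKM in low nitrogen leaf and 30.5 in control leaf. In root, 12 markers of root cell types were compared, of which 0 were higher and 2 lower, where 6.17% and 4.34% of all genes were; their median was -0.15. The markers summed to 421 RPKM on low nitrogen and 840 on control. Most of that gap lay in FD3 on scaffold01365, at 105 RPKM in low nitrogen root and 439 in control root. Of the 12 markers, 5 had a positive and 7 a negative log2 ratio in root. CASP2 was at 84.6 RPKM in low nitrogen root and 63 in control root, CASP5 at 75.2 and 117, and PHO1 at 56 and 104. EXPA7 on scaffold02951, the other lower gene, was at 5.78 and 25.1 RPKM. The part of these differences in the levels of the Calvin cycle and photorespiration genes was not tested.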

How the data were processed

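RNA from leaf and root was sequenced in 4 libraries, and the authors deposited 1 RPKM value per gene and library, beside the length, symbol and Arabidopsis homologue of each gene. Per the submitters' processing notes, Bowtie 0.12.9 was used; no genome build or counting program is given in the sources used here. Ratios were made from the deposited RPKM with a pseudocount of 1, for genes averaging 1 RPKM or more across the compared libraries. The depth of each library was found as the number of reads that makes RPKM times length whole for genes at their deposited length, with a tolerance of 0.00501 RPKM. Read counts are the smallest whole counts allowed by any length of at least 100 bases up to the deposited one; they existed for 81.7% of all genes and 25 of the 33, from which exact Clopper-Pearson intervals of each ratio were taken, conditional on the total. Where a library had 0 reads, the fold is a lower bound set by 3 reads. Steps were tested on simulated data. No count model was fitted, because each group has 1 library.

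Values are printed for genes of the group reaching 50 RPKM in a library or the fold threshold between nitrogen levels, which took in 29 of the 33, and for up to 3 genes per list, those with the largest absolute leaf log2 ratio among genes with a leaf mean of at least 5 RPKM, so they are not typical of their lists; any further gene was picked with its values in view. The members and lists were chosen with earlier results of these data known. Alternatives covered the pseudocount, the filter, 5 scalings, summed homologues and recovered counts. Python 3.11.15, pandas 2.3.3 and scipy 1.17.1 were used.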

Additional observations from a re-analysis of the deposited data

Results flagged for a closer look

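For 6 of the 33 genes the leaf and root log2 ratios of low nitrogen against control had opposite signs and differed by at least 1. The share of all genes that meet this rule is not given here, so the count does not set the group apart. With 1 library per group, the difference between organs was not tested. In 5 of the 6 genes the leaf ratio was negative and the root ratio positive. Of these, RCA on scaffold01066 was at 0.21 RPKM in low nitrogen root and 0 in control root. That is below the mean of 1 RPKM required for a comparison in root. The leaf minus root difference was -2.29 for PGLP1, -1.92 for GAPB, -1.64 for RCA on scaffold01066, -1.56 for SBPASE and -1.02 for RPE. Root read counts were low for several: PGLP1 had 16 in low nitrogen root and 7 in control root, SBPASE 15 and 8, RCA on scaffold01066 2 and 0, and RPE 54 and 44; no whole counts were recovered for GAPB. The AGT1 copy on scaffold00598 differed the other way, by 1.59, with 625 reads in low nitrogen root and 817 in control root.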

How the results depend on the processing

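Scaling changed most how many of the 33 genes passed the threshold in leaf. With a pseudocount of 0.1, 10 genes were lower in place of 9. The 9 lower genes became 15 when centred on the median of all genes, 16 with median ratio scaling and 15 with upper quartile scaling, and the 1 higher gene became 0 under each of these and when rows with the same homologue were summed. Enzymes lower in leaf, after summing copies, numbered 7 as deposited and 12 under each of those 3 scalings. Among all genes in leaf, 3.59% were lower as deposited and 7.51% when centred. Their median moved from 0.33 to -0.05 with median ratio scaling and 0.02 with upper quartile scaling. Shares of all genes are not given for the other settings in this paragraph, so those counts do not set the group apart. The leaf median of the 33 genes lay between -0.95 and -0.46 over all settings. In root, the count higher was 2 with a pseudocount of 0.1 and 0 with a pseudocount of 5 or a mean of at least 5 RPKM, and the count lower was 2 with a pseudocount of 0.1 and 1 with recovered read counts. Between control leaf and control root, 1 gene was lower after summing homologues. For the leaf minus root difference, the count higher was 2 with a pseudocount of 0.1, 3 with recovered read counts and 0 with summed homologues, the count lower was 13 with median ratio scaling, and the median lay between -0.75 with median ratio scaling and 0.02 with recovered read counts. Without the 20 highest genes the 33 genes held 1.82% of the RPKM sum in low nitrogen leaf and 2.92% in control leaf. This alternative and the filter at a mean of 100 RPKM were chosen after seeing the data. The causes were not tested, beyond what each construction changes.

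No single ratio past the threshold changed sign under these alternatives; AGT1 on scaffold00598 in leaf was 0.96, 0.85 and 0.94 under the first 3 scalings. In root, 9 of the 33 genes had a mean below 1 RPKM and were not compared. No paired analysis was possible because each group has 1 library.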

Other observations

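Outside the group, copies of a carrier gene differed in the organ where they were high. This gene and GBSS1 were chosen after a look at their values. How common such a division is among genes with several copies was not counted. Among further genes listed under photorespiration, 21 were compared between control leaf and control root. Of these, 10 were higher in leaf and 7 lower, where 17.6% of all genes were higher and 40.4% lower. The triose phosphate translocator TPT (AT5G46110) copy on scaffold00542 was at 60.1 RPKM in low nitrogen leaf and 79.9 in control leaf, against 8.68 in low nitrogen root and 4.99 in control root. The copy on scaffold02653 was at 1.37 RPKM in low nitrogen leaf and 0.18 in control leaf, against 60.4 in low nitrogen root and 31.4 in control root. GBSS1 had opposite ratios in the organs, with log2 ratios of -1.26 in leaf and 1.72 in root, at 81.7 RPKM in low nitrogen root and 24.2 in control root.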
